A study of Mus musculus with 12 samples.

Results

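The effect of CXD101 on gene expression in M-MDSCs was examined in 4 RNA-seq libraries, 2 from vehicle-treated and 2 from CXD101-treated mice, among the 12 libraries of the series. M-MDSCs, the monocyte-like form of the myeloid cells that suppress T cells in tumors (MDSCs), were sorted from tumors as CD11b+ Ly-6Chi Ly-6G- cells. All groups were wild-type female C57BL/6J mice, 6 to 8 weeks old, that carried tumors of the mouse hepatoma line Hepa 1-6 in the liver and had been selected for an MDSC share of the blood above 20%. CXD101, an inhibitor of the histone deacetylases HDAC1, HDAC2 and HDAC3, was given intraperitoneally at 5 mg/kg every day for 10 days from day 10 after inoculation. The vehicle was a mixture of DMSO, PEG300 and PBS, and cells were collected on day 21. The other 8 libraries come from M-MDSCs of mice given MS-275 at the same dose and from PMN-MDSCs, the polymorphonuclear subset, under all 3 treatments. No group without a tumor was sequenced in these libraries. The study describes the 2 libraries of a group as biological replicates, but the labels do not say whether they come from separate mice. The p-values therefore measure only the spread between these libraries.

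Every gene symbol with at least 1 FPKM in at least 2 of the 4 libraries was compared, which was 10747 of the 24346 symbols. FPKM scales the reads of a gene by its transcript length and by the size of the library, so that levels can also be compared between genes. The comparison was made on log2(FPKM + 1), which understates the fold change of low genes. Each log2 fold change below is CXD101 minus vehicle on this scale, with its standard error and the Benjamini-Hochberg adjusted p from limma. A gene counted as called, higher or lower, where its fold change exceeded 1.5 and its adjusted p was under 0.05. The verbs rose and fell are kept for such genes.

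Histone deacetylases remove acetyl groups from histone tails. HDAC1 and HDAC2 work inside the NuRD, Sin3 and CoREST corepressor complexes and HDAC3 inside the NCoR complex, and loss of their activity raises histone acetylation and can switch on genes that these complexes keep silent. Monocytes arise in the bone marrow from granulocyte-monocyte progenitors, which make the primary granule proteases also used by neutrophils. In a tumor they can mature into macrophages or dendritic-like cells, which take up, process and present antigen, and the ones that suppress T cells are called M-MDSCs.

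The 4 libraries were alike in depth. Their FPKM summed to between 581095 and 596407, and 10445 to 10691 symbols reached 1 FPKM. From the steps between low FPKM, 1 FPKM in a transcript of 2 kb was estimated to correspond to 17.4 to 18.8 reads. The replicates correlated across genes with r = 0.996 in either group. Genes of the sorting gate and of monocytes were strongly expressed. Itgam, which encodes CD11b, had 285 and 281 FPKM under vehicle and 258 and 261 under CXD101, and Csf1r, the receptor of the monocyte growth factor CSF-1, had 123 and 123 against 103 and 104. Of 8 tested monocyte markers 2 rose and 3 fell, and of 3 tested basophil and mast cell markers and 3 tested hepatocyte and liver tumor markers none was called. None of the lymphocyte and NK cell markers or of the erythroid markers reached the FPKM minimum. Ly6g, the antigen excluded by the gate, was not analysed here.

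CXD101 raised 529 genes (4.92% of those tested) and lowered 329 genes (3.06%). These shares are the background for each count of list members below. At an unadjusted p under 0.05 there were 3957 genes, and the median log2 fold change of all tested genes was -0.03. Genes that rose started low, with a median of 2.28 FPKM in the vehicle group, and 129 of them had a vehicle mean under 1 FPKM. Genes that fell had a median of 13.7 FPKM. Most changes were moderate, as the median size was 0.83 among genes that rose and 0.77 among genes that fell, and 16 and 8 genes changed by more than 2 on the log2 scale. Of the genes that rose, 113 reached the FPKM minimum only under CXD101, and of those that fell 39 reached it only in the vehicle libraries, so that these had to differ between the groups. Both libraries of one group lay above both of the other in 6783 of the tested genes, which is 63.1%, so that this alone does not mark out a gene.

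**Figure D1:**
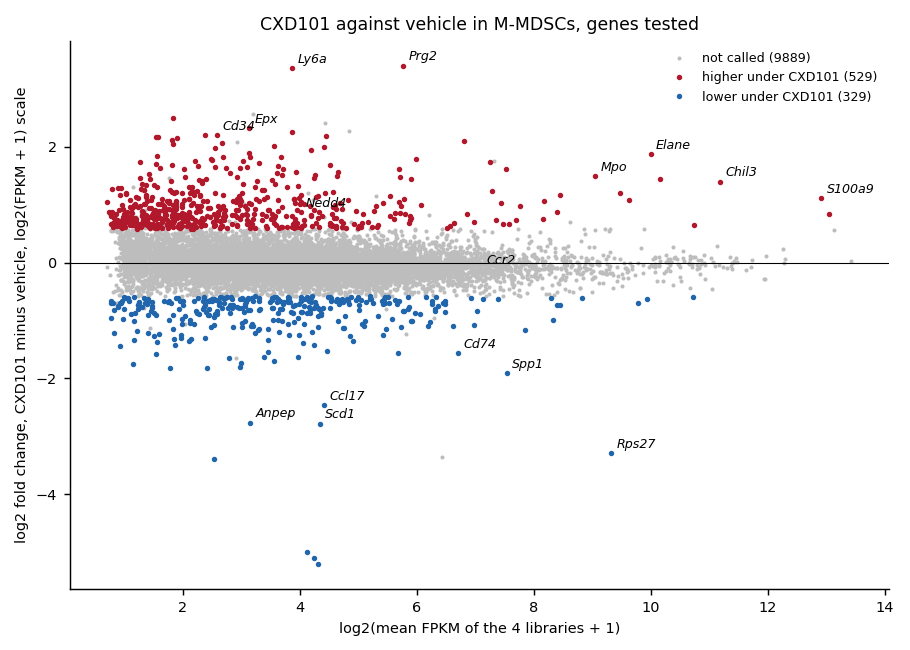
Log2 fold change of CXD101 minus vehicle (vertical axis) against log2 of the mean FPKM of the 4 M-MDSC libraries plus 1 (horizontal axis), with 1 point per tested gene. The 529 genes called higher are red, the 329 called lower are blue and the 9889 others are grey; the genes that rose lie mostly at low mean FPKM.

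The 15 largest increases were in genes of varied function. Prg2 (mm10, chromosome 2, 84980461 to 84983632), the major basic protein of eosinophil granules, had 10.6 and 6.56 FPKM under vehicle and 94.0 and 102 under CXD101. The log2 change was 3.40 ± 0.173 (SE, n = 2 libraries per group, adjusted p = 1.49e-05, limma). Ly6a (chromosome 15, 74994877 to 74998031), which encodes the stem cell antigen Sca-1, had 1.39 and 1.58 FPKM and then 34.5 and 17.1, a change of 3.35 ± 0.250 (adjusted p = 8.15e-05, limma), and the CXD101 libraries lay apart from each other. Gal, the neuropeptide galanin, rose from 7.09 and 6.59 to 32.8 and 36.4 FPKM with little spread (2.18 ± 0.0922). Selm, a selenoprotein, rose from 3.84 and 3.56 to 17.8 and 18.1 FPKM, and Tesc, the calcium-binding protein tescalcin, from 0.643 and 0.134 to 5.25 and 4.86. Tesc reached the FPKM minimum through the CXD101 libraries alone, so that it had to differ between the groups. Ldhb, the B subunit of lactate dehydrogenase, rose from 2.33 and 3.05 to 14.8 and 10.7 FPKM. Plet1, a surface protein that overlaps its antisense transcript Plet1os, rose from 5.67 and 7.43 to 26.9 and 29.0. In Gm1673 the vehicle libraries differed, with 5.87 and 2.62 FPKM, but both lay below the 23.1 and 22.6 of the CXD101 libraries. Epx, H2-Q6, Ear1, Cd34, Cox6b2, Nkg7 and Chd3 complete the 15 largest increases and are given with their groups.

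The 15 largest decreases were also in genes of varied function. Anpep (chromosome 7, 79821803 to 79861059), the surface peptidase CD13 of myeloid cells, had 14.0 and 14.8 FPKM under vehicle and 0.905 and 1.69 under CXD101, a log2 change of -2.76 ± 0.166 (adjusted p = 2.74e-05, limma). Casp6, an executioner caspase, fell from 16.1 and 17.9 to 5.04 and 4.04 FPKM, and Cdc42ep2, an effector of the small GTPase Cdc42, from 22.2 and 23.03 to 6.79 and 6.46. Lpcat2, an acyltransferase that makes platelet-activating factor, fell from 15.6 and 15.02 to 5.12 and 4.12. F2rl2, the protease-activated receptor 3, fell from 7.37 and 7.24 to 1.63 and 1.09 FPKM. In each of these genes the 2 groups were well apart and the replicates close. Rps27 had the largest decrease of a protein-coding gene by value, at -3.29 ± 0.875, but its libraries disagreed within a group, with 1395 and 931 FPKM against 87.9 and 153, near-identical copies of this gene exist, and its call was lost without any one of the 4 libraries. Scd1, Ccl17, Spp1, Batf3, Atp6v0d2, Ankrd37, C1qb, Cd74 and Mmp12, the other large decreases, are given with their groups.

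**Figure D2:**
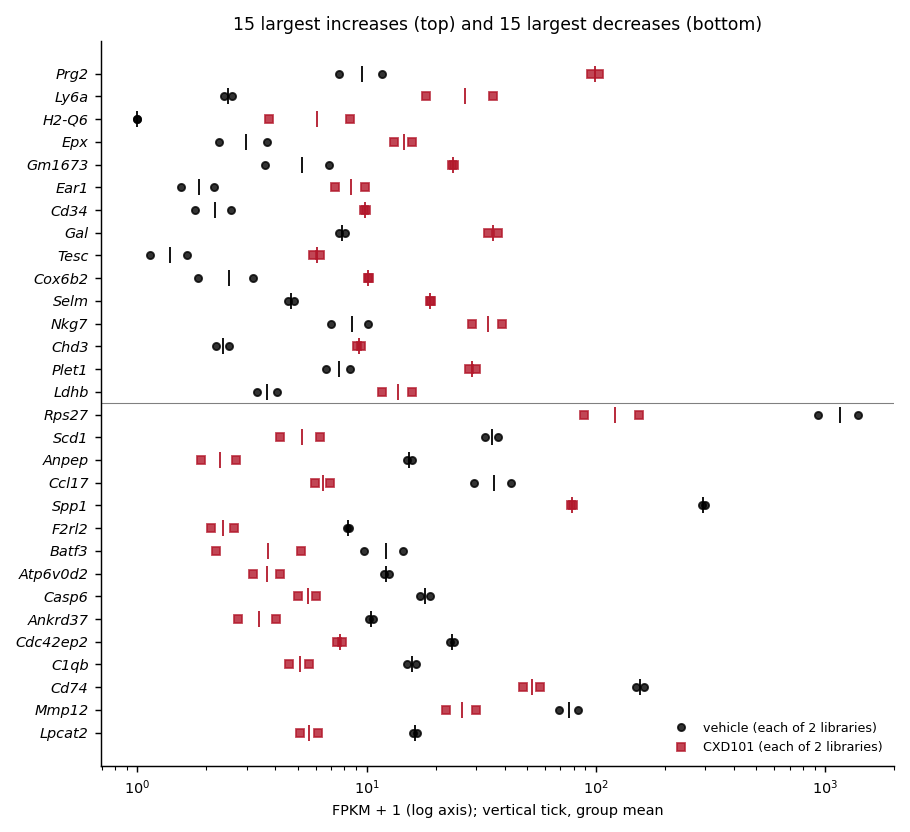
FPKM + 1 on a log axis in each library for the 15 top increases and the 15 top decreases under CXD101, with 2 libraries per group and a tick at the group mean. Prg2 lies near 10 under vehicle and near 100 under CXD101, and the CXD101 libraries of Ly6a, H2-Q6 and Batf3 lie apart from each other.

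HDAC genes themselves changed little. Hdac1, Hdac2 and Hdac3, the targets of CXD101, had 86.3 and 87.8, 39.6 and 38.3, and 33.0 and 33.3 FPKM under vehicle and 116 and 112, 40.2 and 41.1, and 37.6 and 34.7 under CXD101. Hdac1 was above vehicle in both libraries by 0.38 (adjusted p = 0.00181, limma), short of the fold change limit. Of the 9 tested HDAC genes 1 rose, the class IIa member Hdac7, from 3.39 and 4.40 to 6.505 and 7.70 FPKM, and its call was lost without the first vehicle library. Over all tested genes 4.92% rose and 3.06% fell, and among 32 tested subunits of the corepressor complexes 1 rose and none fell. It was Chd3, a helicase subunit of NuRD, with 1.21 and 1.51 FPKM in the vehicle libraries against 8.05 and 8.50 (1.98 ± 0.110, adjusted p = 1.83e-05, limma). The median of that list was -0.09, beside -0.03 over all genes, and Chd3 was its one called gene.

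Histone genes moved in part. Of 19 tested, 4 rose and 1 fell, beside 4.92% and 3.06% of all tested genes, and the median was 0.12. H1f0, the linker histone of resting and differentiating cells, had 34.4 and 34.2 FPKM under vehicle and 60.4 and 64.5 under CXD101 (0.85 ± 0.0612, adjusted p = 7.03e-05, limma). H2afy2, a macroH2A variant, rose from 1.45 and 2.03 to 5.06 and 7.53. Hist3h2ba and Hist1h2bk, replication-type H2B genes whose main transcripts lack a poly(A) tail, lay near 1 FPKM and changed in opposite directions, Hist3h2ba from 0 and 0.382 to 1.12 and 1.19 and Hist1h2bk from 2.24 and 2.67 to 0.978 and 0.690. The number of histone genes that rose was 2 without either CXD101 library, and Hist1h2bk lost its call without either of them. Hist3h2ba lost its call without the first vehicle library, and no histone gene fell without any one library. Hist3h2ba missed the FPKM minimum without either CXD101 library, and so did Hist1h2bk without either vehicle library.

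Ccr2 and the ubiquitin ligases are the genes on which the study centred. Ccr2, the receptor that draws monocytes toward CCL2, had 147 and 137 FPKM under vehicle and 137 and 125 under CXD101, so that the lower vehicle and the higher CXD101 library nearly coincided. Its change was -0.12 ± 0.0661 (adjusted p = 0.228, limma), with a 95% interval from -0.27 to 0.03. Nedd4 (chromosome 9, 72662346 to 72749852), a HECT-type ubiquitin ligase, rose from 11.9 and 9.03 to 20.3 and 19.3 FPKM (0.87 ± 0.127, adjusted p = 0.00197, limma). In the family of NEDD4 ligases and their adaptors, 13 genes were tested, 1 rose and 2 fell. Those that fell were Smurf1, a ligase of the TGF-beta and BMP pathways, from 7.46 and 7.84 to 4.13 and 5.04, and the adaptor Arrdc4, from 16.5 and 18.9 to 9.02 and 11.6. Both lost their calls without the first CXD101 library. Of 34 tested TRIM ligases 3 rose and none fell, and over all tested genes the shares were 4.92% and 3.06%. Trim6 went from 0.867 and 0.849 to 2.04 and 3.15 FPKM, and Trim45 and Trim46 were similarly low. Trim32 had 3.72 and 3.38 FPKM against 5.68 and 4.78 and was not called (0.45, adjusted p = 0.0364, limma). Trim6 missed the FPKM minimum without either CXD101 library, and fewer TRIM genes were called without the first. With quantile normalization 1 TRIM gene was called, and of 21 tested at an FPKM of at least 5 none was called.

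Most of the tested eosinophil genes rose. Of the 12 genes on that list 8 were tested, 7 rose and none fell, and the median was 1.74 against -0.03 over all genes. With low genes kept in, 6 of 11 rose and the median was 0.73. Epx (chromosome 11, 87864000 to 87875536), eosinophil peroxidase, had 2.68 and 1.28 FPKM under vehicle and 12.2 and 14.8 under CXD101 (2.32 ± 0.198, adjusted p = 1.45e-04, limma). Prg3, a homolog of Prg2 that reached the FPKM minimum through the CXD101 libraries alone, went from 0.510 and 0.133 to 5.59 and 3.86. Ear1 and Ear2, eosinophil-associated ribonucleases with close paralogs among which reads may be shared, rose from 0.559 and 1.17 to 6.28 and 8.86 and from 137 and 174 to 249 and 265. Siglecf, a sialic acid receptor of eosinophils and some macrophages, rose from 1.40 and 2.25 to 6.15 and 6.28, and Cebpe, the transcription factor of late granulocyte maturation, from 22.7 and 25.8 to 31.7 and 43.7. Ear6 had 8.03 and 12.1 against 9.53 and 11.1 FPKM and was not called. Il5ra, the receptor of interleukin-5, and Ccr3, the eotaxin receptor, were too low to be tested, with at most 0.0614 and 0.217 FPKM. Of 7 tested eosinophil markers 6 rose. Summed over the eosinophil markers, FPKM was 161 and 197 under vehicle and 383 and 412 under CXD101, and Ear2 made up most of the sum in each library. In a bulk library a change in the number of cells of a type and a change in the RNA per cell cannot be told apart, and the part of other cells in these increases was not tested. Without the first vehicle library or the second CXD101 library 5 genes of the list were called. Prg3 missed the FPKM minimum without either CXD101 library.

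Several primary granule genes of the granulocyte-monocyte progenitor rose. Of 13 tested genes 7 rose, none fell and 6 were not called, with a median of 0.66. Elane (chromosome 10, 79886247 to 79888215), neutrophil elastase, had 436 and 439.9 FPKM under vehicle and 1659.9 and 1551 under CXD101, a log2 change of 1.87 ± 0.0625 (adjusted p = 3.29e-06, limma). Mpo (chromosome 11, 87793581 to 87804413), myeloperoxidase, rose from 298 and 257 to 777 and 777 (1.49 ± 0.0728, adjusted p = 1.38e-05, limma), and Ctsg (chromosome 14, 56099881 to 56102574), cathepsin G, from 221 and 210.1 to 483 and 483 (1.16 ± 0.0583, adjusted p = 1.46e-05, limma). The replicates of these 3 protease and peroxidase genes were far closer to each other than to the other group. Srgn, the proteoglycan serglycin on which granule proteases are packed, rose from 195 and 176 to 419 and 359. Ms4a3, Prss57 and Serpinb1a, the other genes that rose, were chosen for mention after their values were seen and changed by 0.66 to 0.93. Prtn3, proteinase 3, had 751 and 774 FPKM against 1151 and 1119.8 and stayed just below the fold change limit at 0.57 (adjusted p = 2.73e-04, limma). The count was 7 or 8 without any one library.

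To show what lies before the start of these granule genes, the 250 bases upstream of the annotated start of Epx (GRCm38.p6, chr11:87875537-87875786, minus strand), Elane (chr10:79886062-79886311, plus strand), Mpo (chr11:87793534-87793783, plus strand) and Ctsg (chr14:56102575-56102824, minus strand) were read from RefSeq, whose starts for Elane and Mpo differ from the GENCODE positions given above. They are given 5′ to 3′ in the direction of the gene, in lower case, and capitals mark matches to the motifs named below.
Epx: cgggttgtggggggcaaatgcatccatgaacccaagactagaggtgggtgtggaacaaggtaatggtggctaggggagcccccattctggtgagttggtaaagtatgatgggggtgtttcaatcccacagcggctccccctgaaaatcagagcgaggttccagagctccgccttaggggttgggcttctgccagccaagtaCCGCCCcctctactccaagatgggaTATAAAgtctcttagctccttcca
Elane: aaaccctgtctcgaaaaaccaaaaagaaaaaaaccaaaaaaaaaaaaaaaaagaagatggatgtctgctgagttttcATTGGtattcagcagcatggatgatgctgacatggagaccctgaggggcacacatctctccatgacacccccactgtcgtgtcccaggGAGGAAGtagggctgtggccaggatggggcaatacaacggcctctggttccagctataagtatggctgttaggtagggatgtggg
Mpo: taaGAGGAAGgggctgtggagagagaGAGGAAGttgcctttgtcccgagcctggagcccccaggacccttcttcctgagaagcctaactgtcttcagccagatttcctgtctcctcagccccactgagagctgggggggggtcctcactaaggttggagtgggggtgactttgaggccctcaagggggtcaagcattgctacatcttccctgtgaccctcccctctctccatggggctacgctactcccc
Ctsg: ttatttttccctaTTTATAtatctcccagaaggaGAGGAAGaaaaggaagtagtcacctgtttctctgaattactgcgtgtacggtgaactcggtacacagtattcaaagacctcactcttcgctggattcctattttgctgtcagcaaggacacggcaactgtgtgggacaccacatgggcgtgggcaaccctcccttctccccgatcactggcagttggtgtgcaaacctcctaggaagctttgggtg
The motifs were searched on both strands in the 250 bases: the GC box GGGCGG, an ETS type motif GAGGAAG, the CCAAT box, a GATA type motif AGATAA and the TATA box TATAAA. No overlap between motifs occurred in these 4 sequences. Counted back from the start, Epx held a TATA box at position -24 and a GC box on the other strand at -49. GAGGAAG stood at -85 in Elane, at -247 and -224 in Mpo and at -216 in Ctsg. Elane also held CCAAT on the other strand at -173, and Ctsg a TATA box on the other strand at -237. Of 32851 promoters searched, 10.6% held GAGGAAG, 32.7% GGGCGG, 33.8% CCAAT, 9.99% AGATAA and 12.4% TATAAA. Among the 10544 promoters of tested genes the shares were 11.3%, 58.0%, 35.4%, 5.70% and 5.98%. A promoter was at hand for 10 of the 13 tested primary granule genes. Of these 10 genes 5 held GAGGAAG: Ctsg, Elane and Mpo, which rose, and Ctsc and Prtn3, which were not called. Ms4a3 and Srgn, which also rose, had promoters without GAGGAAG. Counted by gene in the same way, 1 of 6 eosinophil, 4 of 16 progenitor, 0 of 6 dendritic cell and 2 of 18 sterol and fatty acid synthesis genes held it, whereas the shares above count promoters. Among the promoters of all genes that rose 13.3% held it and among those of genes that fell 14.6%.

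Later granule genes of neutrophils moved in both directions, more often upward. Of 19 tested genes of the secondary and tertiary granules and the neutrophil secretome, 4 rose and 2 fell, 14 had a positive change and the median was 0.48. Chil3, the chitinase-like protein Ym1, was among the most abundant transcripts and had 1333 and 1226 FPKM under vehicle and 3519 and 3197 under CXD101 (1.39 ± 0.0693, adjusted p = 1.46e-05, limma). Cd177, a neutrophil surface antigen, rose from 25.7 and 37 to 81.7 and 90.5, and Mmp8, neutrophil collagenase, from 117 and 107 to 266 and 196. Orm1, an acute-phase protein, lay between 0.175 and 2.75 FPKM and lost its call without the second vehicle library. The genes that fell were Hp, haptoglobin, from 430.4 and 428 to 221 and 208, and Mmp9, gelatinase B, from 7.27 and 10.4 to 4.32 and 4.95. The specific granule genes Ltf and Camp overlapped between the groups, Ltf with 73.3 and 102 against 82.1 and 92.2 FPKM and Camp with 51.8 and 82.8 against 80.8 and 86.8, although Camp was called without the second vehicle library. Ngp, another specific granule gene, had 470.1 and 544 against 714 and 795 FPKM, just below the fold change limit at 0.57, and was called in 4 alternatives. The number of genes that rose was 8 without the second vehicle library, 7 without the second CXD101 library and 8 with median-of-ratios scaling, and 1 gene fell without either of these 2 libraries.

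The alarmins S100a8 and S100a9 were among the most abundant transcripts, and of 9 tested S100 genes 2 rose and 1 fell. S100a9 had 4915 and 4869 FPKM under vehicle and 10842 and 10326 under CXD101, and S100a8 had 6434 and 5693 against 11178 and 10467. Both rose on the deposited scale, by 1.11 ± 0.0836 (adjusted p = 8.15e-05, limma) and 0.84 ± 0.0948 (adjusted p = 5.73e-04, limma). With quantile normalization, which gives every library the same set of values, the changes were 0.39 (adjusted p = 0.196, limma) and 0.28 (adjusted p = 0.0632, limma). S100a4, a calcium-binding protein of motile cells, fell from 1054 and 1123 to 669.7 and 677. Summed over the neutrophil markers, FPKM was 12074 and 11416 under vehicle and 23195 and 21996 under CXD101, nearly all from S100a8 and S100a9. Of 9 tested markers 5 rose and 8 had a positive change. The other was Retnlg, a marker of mature neutrophils, with 1.64 and 5.14 against 1.91 and 4.31 FPKM. Vehicle PMN-MDSCs had 287 and 412 FPKM of Retnlg. The part of neutrophils in these changes was not tested.

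Stefins, inhibitors of cysteine proteases encoded by a cluster of near-identical genes, moved in opposite directions. Of 12 tested genes, which include the neutrophil protease gene Asprv1, 2 rose and 4 fell. Stfa1 fell from 42.7 and 36.8 to 19.8 and 12.8 FPKM and Stfa2 from 14.2 and 9.88 to 6.15 and 3.26, while Stfa3 rose from 8.61 and 8.51 to 20.8 and 18.1. How reads were divided among these copies is not given in the sources used here. Asprv1 rose from 1.22 and 1.94 to 7.17 and 8.28 (1.77 ± 0.168, adjusted p = 2.41e-04, limma). Without the first vehicle library 2 genes of the list fell, and Stfa2 was no longer called.

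Genes of granule release also rose in part. All 7 tested genes of exocytosis and cytotoxic granules had positive changes and 4 were called. Nkg7, a membrane protein of cytotoxic granules, had 9.19 and 6.01 FPKM under vehicle and 37.9 and 27.9 under CXD101 (1.99 ± 0.181, adjusted p = 2.00e-04, limma). Sytl1, Rab27a and Stx11, which tether and fuse granules at the membrane, rose less, from 1.22 and 2.31 to 4.51 and 5.07, from 31.7 and 29.3 to 49.0 and 45.1 and from 9.79 and 8.49 to 14.98 and 14.0. Rab27a and Stx11 lay close to the fold change limit and lost their calls without the second vehicle library or the first CXD101 library. Lymphocyte and NK cell markers, of which none reached the FPKM minimum, summed to 0.848 and 0.440 FPKM under vehicle and 0.690 and 1.47 under CXD101.

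Many stem and progenitor genes rose. Of the 28 genes listed 18 were tested, 12 rose, 1 fell and 5 were not called, and the median was 1.10. With low genes kept in, 13 of 28 rose and the median was 0.42. Cd34 (chromosome 1, 194938819 to 194961279), the surface sialomucin of hematopoietic progenitors, had 1.56 and 0.790 FPKM under vehicle and 8.73 and 8.94 under CXD101 (2.2 ± 0.152, adjusted p = 5.52e-05, limma). Spink2, a protease inhibitor of early progenitors, rose from 2.86 and 2.55 to 11.3 and 11.7 (1.76 ± 0.0848, adjusted p = 1.38e-05, limma), and Adgrg1, the adhesion receptor GPR56, from 1.16 and 1.06 to 5.56 and 6.72. Kit, the receptor of stem cell factor, rose from 3.86 and 3.38 to 7.18 and 7.48. Myb, the transcription factor that keeps progenitors dividing, was named after its values were seen and had 12.4 and 11.1 FPKM against 38.5 and 34.8. Hoxa9, also named after its values were seen, rose from 1.10 and 0.707 to 4.06 and 3.98. Meis1, a partner of the Hoxa proteins, fell from 1.85 and 2.02 to 0.972 and 0.699. Ly6a, described above, belongs to this list too, while Flt3 and Mecom stayed below 0.5 FPKM in all 4 libraries. The count of genes that rose was 11 or 12 without any one library, while none fell without either vehicle library or the second CXD101 library. Meis1 missed the FPKM minimum without either vehicle library, so that it could not be called there.

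Lineage transcription factors moved in both directions. Of 37 tested, 5 rose and 7 fell, with a median of -0.12. Id3, an inhibitor of basic helix-loop-helix factors, rose from 7.61 and 12.4 to 29.8 and 37.5 FPKM (1.68 ± 0.189, adjusted p = 5.67e-04, limma). Gfi1, a repressor that favors the granulocytic over the monocytic fate, rose from 12.5 and 13.9 to 31.2 and 33.0 (1.22 ± 0.0819, adjusted p = 4.88e-05, limma). Cebpa, the factor of the granulocyte-monocyte progenitor, was named after its values were seen and rose from 28.0 and 26.6 to 51.1 and 62.6. Klf4, a factor of monocyte maturation chosen after its values were seen, fell from 53.1 and 54.6 to 33.5 and 36.9. Atf3, a stress-induced factor, fell from 9.34 and 10.6 to 4.38 and 3.77. Batf3, the factor of cross-presenting dendritic cells, had 8.77 and 13.4 against 4.19 and 1.21, and its call was lost without the second vehicle library or the second CXD101 library. Spi1 and Irf8, the master factors of the myeloid and the monocyte and dendritic lineages, were also chosen for mention with their values known, and had 301 and 322 against 279.6 and 320.0 FPKM and 34.5 and 36.6 against 36.1 and 39.9. The number of factors that fell was 3 without the second vehicle library, and 3 rose without the first.

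**Figure D3:**
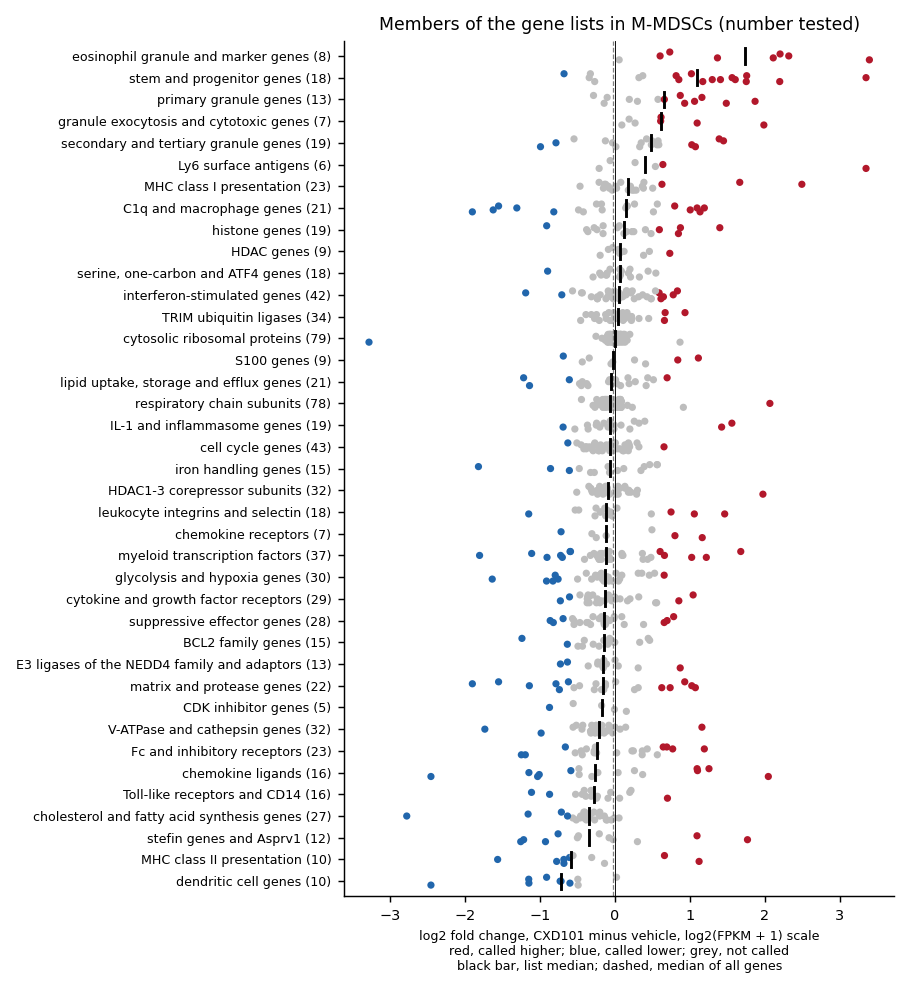
Log2 fold change of CXD101 minus vehicle for each tested gene of 39 gene lists, with 1 row per list, a black bar at its median and a dashed line at the median of all tested genes. The eosinophil, progenitor and primary granule lists lie to the right with medians of 1.74, 1.10 and 0.66, and the dendritic cell and MHC class II lists to the left with -0.73 and -0.58.

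Most of the tested dendritic cell genes fell. Of the 18 genes listed 10 were tested, none rose, 7 fell and 3 were not called, with a median of -0.73. With low genes kept in, 5 of 17 fell and the median was -0.50. Ccl17 (chromosome 8, 94810453 to 94812036), a ligand of CCR4 made by dendritic cells, had 41.8 and 28.3 FPKM under vehicle and 4.98 and 5.93 under CXD101 (-2.46 ± 0.175, adjusted p = 6.41e-05, limma). Ccl22, the second CCR4 ligand, fell from 13.3 and 11.97 to 5.80 and 4.54 (-1.15 ± 0.176, adjusted p = 0.00245, limma), and Itgax, which encodes CD11c, from 14.3 and 14.1 to 6.03 and 5.62. Clec10a, a C-type lectin of dendritic cells and macrophages, fell from 38.2 and 31.4 to 19.5 and 16.4. Ccr7, the receptor for migration to lymph nodes, lay near 1 to 2 FPKM and lost its call without either vehicle library or without the second CXD101 library. Cd80, a costimulatory ligand, had 12.5 and 13.1 against 13.04 and 12.9. The number of genes that fell was 4 without the first vehicle library or the second CXD101 library.

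MHC class II genes split. Of 10 tested genes 2 rose and 5 fell, with a median of -0.58, or -0.35 with low genes kept in. Cd74, the invariant chain, had 161 and 148 FPKM under vehicle and 56.1 and 47.2 under CXD101 (-1.57 ± 0.0913, adjusted p = 2.46e-05, limma). The classical chains H2-Ab1 and H2-Eb1 fell from 22.5 and 23.1 to 12.5 and 13.3 and from 9.54 and 9.21 to 6.69 and 4.42, and H2-Eb1 lost its call without either vehicle library or the second CXD101 library. The genes that rose were H2-Oa and H2-DMb1, chains of the chaperones that tune peptide loading in the endosome. H2-Oa had 5.40 and 6.21 FPKM against 11.9 and 15.9 (1.12 ± 0.132, adjusted p = 6.83e-04, limma), and H2-DMb1, named after its values were seen, 22.2 and 23.1 against 35.1 and 37.6. The number of genes that fell was 3, 2 and 3 without the first vehicle, the second vehicle and the second CXD101 library.

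MHC class I genes and interferon-stimulated genes had medians closer to that of all genes than the class II list had. Among all tested genes 4.92% rose and 3.06% fell. Of 23 tested class I presentation genes 3 rose and none fell, with a median of 0.18. They were Nlrc5, the transactivator of class I genes, from 2.89 and 2.90 to 5.20 and 4.84 FPKM, and H2-Q7 and H2-Q6, nonclassical genes that are near-identical copies. H2-Q7 rose from 1.53 and 0.959 to 8.28 and 4.37. H2-Q6 was nearly absent in the vehicle libraries, with 0.00140 FPKM at most, and had 7.45 and 2.77 under CXD101, and it was no longer called when low genes were kept in (adjusted p = 0.0521, limma) and with all 12 libraries in one model (adjusted p = 0.1, limma). Without either CXD101 library fewer class I genes were called and H2-Q6 missed the FPKM minimum. Of 42 tested interferon-stimulated genes 5 rose and 2 fell, and the median of 0.05 was near that of all genes. Gbp3, a guanylate-binding protein, rose from 2.78 and 3.56 to 6.72 and 6.07, and Isg20, an exonuclease, from 4.05 and 3.39 to 8.20 and 6.07. Ifi203, a member of the DNA-sensor family, fell from 16.0 and 16.8 to 6.07 and 7.14 (-1.19 ± 0.0992, adjusted p = 1.32e-04, limma), and Ifi27l2a from 20.1 and 17.4 to 10.4 and 11.7. Without the first CXD101 library 2 of these genes rose, and 3 without the second vehicle library.

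Macrophage genes moved in both directions. Of 21 tested genes 5 rose and 5 fell. Those that fell included the complement subunits C1qb (chromosome 4, 136880129 to 136886187), from 15.5 and 14.0 to 4.63 and 3.59 FPKM (-1.63 ± 0.141, adjusted p = 1.59e-04, limma), and C1qc, from 5.48 and 5.01 to 1.71 and 1.33. They also included Mmp12, macrophage elastase, from 82.3 and 67.8 to 28.9 and 21.1, and Spp1 (chromosome 5, 104435118 to 104441050), the matrix protein osteopontin. Spp1 had 289 and 298 FPKM under vehicle and 76.6 and 78.4 under CXD101 (-1.91 ± 0.0667, adjusted p = 3.29e-06, limma). The genes that rose included Fcgr4, an activating Fc receptor, from 11.9 and 12.3 to 28.3 and 29.6 (1.19 ± 0.0744, adjusted p = 3.20e-05, limma), and Marco, a scavenger receptor, from 8.97 and 11.4 to 18.04 and 25.04. The others that rose were Pf4, Ms4a7, from 1.595 and 1.93 to 3.14 and 4.54, and the adhesion molecule Vcam1, from 0.774 and 0.466 to 2.68 and 2.41, named after their values were seen. Mrc1, the mannose receptor, had 79.9 and 81.3 against 65.0 and 77.4 FPKM and was not called. The Kupffer cell markers Vsig4, Clec4f and Timd4 were listed at 0 in all 4 libraries. Of 5 tested markers of tissue macrophages 3 fell, all C1q subunits. Summed over these markers, FPKM was 141 and 143 under vehicle and 114 and 131 under CXD101. Fewer genes of the macrophage list rose without the second CXD101 library, and Vcam1 missed the FPKM minimum without either CXD101 library.

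Receptors for immune complexes and bacterial products mostly missed the call. The shares over all tested genes were 4.92% higher and 3.06% lower. Of 23 tested Fc and inhibitory receptors 4 rose and 3 fell. Fcgr1, the high-affinity receptor for IgG, fell from 25.1 and 24.6 to 9.89 and 10.6 FPKM (-1.20 ± 0.0807, adjusted p = 4.89e-05, limma), opposite to Fcgr4. Siglece, an inhibitory sialic acid receptor, rose from 16.2 and 17.2 to 27.4 and 31.1. Pira2, of a cluster of near-identical immunoglobulin-like receptors, fell from 21.3 and 21.3 to 8.30 and 8.40. Of 16 Toll-like receptor and CD14 genes 1 rose and 2 fell. Tlr4 and Cd14, which together bind lipopolysaccharide, fell from 26.3 and 25.1 to 13.5 and 13.6 and from 23.9 and 28.2 to 11.1 and 11.8. Tlr1, the gene that rose, had 1.62 and 1.52 against 3.66 and 2.74 and lost its call without either vehicle library or the first CXD101 library.

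Of 7 tested chemokine receptors 2 rose and 1, Ccr7, fell. Cxcr2, the receptor of neutrophil chemoattractants, had 2.81 and 3.11 FPKM under vehicle and 8.005 and 7.75 under CXD101 (1.16 ± 0.0918, adjusted p = 9.96e-05, limma). Cxcr4, which holds cells in the bone marrow, rose from 43.0 and 41.3 to 75.2 and 72.9 (0.80 ± 0.0638, adjusted p = 1.05e-04, limma). Among 16 tested ligands 4 rose and 5 fell. Besides Ccl17 and Ccl22, the Ccr2 ligand Ccl2 fell, from 31.1 and 33.9 to 16.7 and 14.47, and Ccl3 and Ccl6 fell from 105 and 93.9 to 53.2 and 43.4 and from 2014 and 2059 to 1361 and 1343, these 3 being named after their values were seen. Ppbp and Pf4, chemokines stored in platelets, rose from 0.867 and 0 to 4.98 and 4.33 and from 7.89 and 9.26 to 19.4 and 19.4. The other platelet markers stayed at or below 1.07 FPKM, and the platelet marker sum was 11.4 and 9.88 under vehicle and 27.3 and 25.1 under CXD101. The part of platelets was not tested. Ccl27a went from 0.676 and 0.216 to 3.72 and 1.46 and lost its call without the second vehicle library. Without either CXD101 library 2 ligands rose, and Ppbp and Ccl27a missed the FPKM minimum there.

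Cytokine receptors and suppressive effectors mostly missed the call, as did most tested genes, of which 4.92% rose and 3.06% fell. Of 29 tested cytokine receptors 2 rose and 2 fell. Csf3r, the receptor of the granulocyte growth factor G-CSF, rose from 8.75 and 10.5 to 21.02 and 20.6 FPKM (1.04 ± 0.0913, adjusted p = 1.64e-04, limma). Il13ra1, a chain of the interleukin-4 and interleukin-13 receptors, fell from 5.45 and 5.48 to 3.21 and 2.61. Lifr, the receptor of leukemia inhibitory factor, lay near 1 FPKM, lost its call without either CXD101 library and missed the FPKM minimum without either vehicle library. Of 28 tested genes of suppression 3 rose and 3 fell. Nt5e, which encodes the adenosine-producing enzyme CD73, rose from 0.986 and 0.882 to 2.53 and 2.13, and Olr1, the receptor LOX-1, from 1.61 and 1.74 to 3.23 and 3.43, although Olr1 lost its call with quantile normalization. Il6 fell from 3.01 and 2.36 to 1.10 and 0.930, with its call lost without the first vehicle or the second CXD101 library, and the C-type lectin Clec4d fell from 41.8 and 38.4 to 23.3 and 21.1. Arg1, arginase, overlapped between the groups with 18.5 and 21.96 against 16.2 and 20.7, Nos2 stayed below 0.03 FPKM, and Cd274, which encodes PD-L1, had 18.2 and 19.9 against 17.3 and 18.2. Without either CXD101 library fewer genes of suppression rose and Nt5e missed the FPKM minimum.

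Genes of the interleukin-1 family and the inflammasome included 19 tested, of which 2 rose and 1 fell. Il18, an inflammasome-processed cytokine, had 6.45 and 7.03 FPKM under vehicle and 22.1 and 21.5 under CXD101 (1.56 ± 0.104, adjusted p = 4.79e-05, limma). Mefv, the inflammasome sensor pyrin, rose from 1.37 and 1.92 to 6.15 and 5.97 (1.42 ± 0.130, adjusted p = 2.02e-04, limma). Il1b had 6.60 and 7.50 against 4.41 and 3.57 and lost its call without any one library. Bcl2l1 and Bcl2a1a, inhibitors of apoptosis, were the 2 of 15 tested BCL2 family genes that fell, Bcl2l1 from 34.2 and 31.8 to 23.02 and 18.8 and Bcl2a1a, one of several near-identical copies, from 54.8 and 63.2 to 22.1 and 26.7. Bcl2l1 lost its call without the second CXD101 library. Cell cycle genes barely moved. Of 43 tested 1 rose, the cyclin Ccnd1, from 15.7 and 18.6 to 25.6 and 29.4, and 1 fell, the mitotic enzyme gene Ube2c, from 183 and 157 to 113 and 105, and both lost their calls without the first vehicle library or the second CXD101 library. Of 5 tested CDK inhibitors 1 fell, Cdkn2c, from 14.6 and 15.3 to 8.10 and 7.30, and 2 fell without the second vehicle or the first CXD101 library.

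Sterol and fatty acid synthesis genes lay mostly below vehicle. Of 27 tested genes none rose and 4 fell, the median was -0.34, and 1 of the 27 had a positive change. Scd1 (chromosome 19, 44394455 to 44407879), the desaturase that makes monounsaturated fatty acids, had 36.4 and 32.0 FPKM under vehicle and 5.24 and 3.17 under CXD101 (-2.78 ± 0.171, adjusted p = 2.94e-05, limma). Scd2, its more abundant homolog, fell from 335 and 301 to 149 and 134 (-1.16 ± 0.0731, adjusted p = 3.35e-05, limma). Lss, which closes the sterol ring, fell from 14.99 and 15.6 to 8.87 and 8.95. Insig1, the sterol-sensing retention protein of the SREBP pathway, fell from 53.6 and 50.4 to 35.2 and 31.2, and lost its call without the second CXD101 library. The number that fell was 6 without the first CXD101 library. Of 21 tested genes of lipid uptake, storage and efflux 1 rose and 3 fell, which were Cd36, a fatty acid transporter, from 4.11 and 3.63 to 1.37 and 1.05, Abca1, a cholesterol exporter, from 1.67 and 1.31 to 0.0580 and 0.0716, and Lpl, lipoprotein lipase. Without the first CXD101 library 3 of these genes rose. Lpl, with 549.8 and 549 against 355 and 364 FPKM, was no longer called under median-of-ratios scaling or quantile normalization. Abca1 reached the FPKM minimum through the vehicle libraries alone, so that it had to differ between the groups.

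Genes of glucose use and hypoxia fell in part. Of 30 tested 1 rose and 5 fell, with a median of -0.13. Slc2a1, the glucose transporter GLUT1, fell from 71.5 and 66.5 to 37.7 and 39.0 FPKM (-0.83 ± 0.0687, adjusted p = 1.30e-04, limma), Slc16a3, a lactate exporter, from 70.5 and 73.2 to 41.0 and 40.7, and Aldoc, an aldolase, from 24.6 and 25.1 to 13.03 and 12.4. Ankrd37, a hypoxia-induced gene, fell from 9.22 and 9.62 to 3.05 and 1.76. Vegfa, the angiogenic factor, was named after its values were seen and rose from 11.2 and 9.61 to 15.5 and 18.4, but no gene of the list rose without the second vehicle or the second CXD101 library. Gapdh, often used as a reference, had 2711 and 2843 against 2628 and 2517 (-0.11, adjusted p = 0.192, limma). Among 18 tested genes of serine and one-carbon metabolism and the ATF4 response 1 fell, Slc7a11, the cystine importer, from 2.93 and 2.65 to 0.905 and 1.16.

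Genes of the respiratory chain and the ribosome changed in 1 member each. Of 78 tested respiratory chain subunits 1 rose, Cox6b2, the testis form of a cytochrome c oxidase subunit, from 2.19 and 0.846 to 9.16 and 9.20 FPKM (2.07 ± 0.248, adjusted p = 7.39e-04, limma). Of 79 tested cytosolic ribosomal protein genes 1 fell, Rps27, described above, and the median was -0.01. In the lysosome, of 32 tested V-ATPase and cathepsin genes 1 rose, Ctsg, and 2 fell. Atp6v0d2, the V-ATPase subunit of osteoclasts and macrophages, fell from 10.9 and 11.5 to 2.196 and 3.17 (-1.74 ± 0.147, adjusted p = 1.40e-04, limma), and Ctsk, the osteoclast cathepsin, from 4.76 and 4.82 to 1.76 and 2.09, and 4 genes of the list fell without the second CXD101 library. Of 15 tested iron handling genes 3 fell. They were Cp, the ferroxidase ceruloplasmin, from 4.80 and 3.88 to 0.546 and 0.456, Slc11a1, the phagosomal metal transporter NRAMP1, from 9.15 and 10.1 to 4.67 and 4.99, and Aco1, an iron regulatory protein. Cp reached the FPKM minimum through the vehicle libraries alone. Aco1 had 27.1 and 26.8 against 16.8 and 17.8 and lost its call without the first CXD101 library and under both other scalings.

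Adhesion and matrix genes moved both ways. Of 22 tested matrix and protease genes 5 rose and 6 fell, beside 4.92% and 3.06% of all tested genes. Thbs1, the matrix protein thrombospondin-1, was the most abundant of those that rose, with 578 and 448 FPKM under vehicle and 1128 and 1018 under CXD101 (1.07 ± 0.108, adjusted p = 3.38e-04, limma), and Vcan, the proteoglycan versican, fell from 64.0 and 56.7 to 30.1 and 23.6 (-1.14 ± 0.116, adjusted p = 3.40e-04, limma). Serpinb2, an inhibitor of plasminogen activators, rose from 2.19 and 2.39 to 6.19 and 4.46 and lost its call without the first CXD101 library, where 3 genes of the list rose. Of 18 tested integrins and their partners 3 rose and 1, Itgax, fell. Pecam1, the adhesion molecule CD31, rose from 9.44 and 8.80 to 26.9 and 26.9 (1.46 ± 0.0758, adjusted p = 1.49e-05, limma). Itga6 rose from 3.63 and 3.81 to 9.003 and 8.67 and Itgal, the alpha chain of LFA-1, from 35.2 and 35.4 to 58.5 and 61.5. Pecam1 was the only tested gene of the stroma and endothelium markers. The sorting antigen genes differed as well. Ly6c2, which encodes Ly-6C, rose from 1360.2 and 1306 to 2110.4 and 2041 (0.64 ± 0.0545, adjusted p = 1.45e-04, limma), and among 6 tested Ly6 genes it and Ly6a were called.

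Among short noncoding transcripts, 2 rose and 6 fell. Snora31 had 49.6 and 25.6 FPKM in the vehicle libraries, Mir6363 23.3 and 48.0, Mir8094 21.5 and 43.9 and Bc1 9.36 and 9.71. All 4 were listed at 0 in both CXD101 libraries, so that no fold change is given. They reached the FPKM minimum through the vehicle libraries alone. The libraries were made from poly(A) RNA, and on transcripts this short a handful of reads gives a large FPKM. Mir6363 and Mir8094 lost their calls without either CXD101 library.

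Several of the genes described here overlap another gene on the opposite strand, among them Ear1, Cd34, Mpo, Plet1, Lpcat2, Ankrd37, F2rl2, Mmp12, Gfi1, Il18, H2-Oa, Hdac7 and Thbs1. The libraries were stranded, but the strand setting of the quantification is not given in the sources used here, so that reads from such partners may be included.

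MS-275 is a benzamide inhibitor of the same deacetylases and was given at the same dose and times, which allows the inhibitors to be compared directly in M-MDSCs. This was 1 pair of compounds, and p-values were adjusted over the 10747 genes. With CXD101, 130 genes were higher (1.21% of those tested) and 245 were lower (2.28%) than with MS-275. The comparisons of each inhibitor with vehicle share the vehicle libraries, and values are therefore set side by side. Genes called against vehicle were chosen on the same CXD101 libraries that enter the comparison with MS-275. The counts among them below are therefore a description and not a test. Of the 529 genes raised by CXD101, 120 were lower and 10 were higher than with MS-275, and 399 were not called different. The 95% interval of the difference lay within a fold change of 1.5 in 208 of these 399, and in the others a larger difference was not excluded. Of the 329 genes lowered by CXD101, 37 were higher and 10 lower than with MS-275, and 282 were not called different, 185 of them with an interval inside the same limit.

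CXD101 left several progenitor and neutrophil genes below their level with MS-275. Ly6a had 34.5 and 17.1 FPKM with CXD101 and 224 and 254 with MS-275, a log2 difference of -3.24 (adjusted p = 3.81e-04, limma), and Cd34 had 8.73 and 8.94 against 36.6 and 35.02 (-1.90, adjusted p = 3.99e-04, limma). Spink2, with 11.3 and 11.7 against 39.0 and 40.1 (-1.70, adjusted p = 6.56e-05, limma), and Mmp8, with 266 and 196 against 768 and 801 (-1.77, adjusted p = 2.78e-04, limma), differed in the same direction. Cxcr2, Srgn, Nkg7, Thbs1 and Nedd4 were lower as well, Nedd4 with 20.3 and 19.3 against 28.3 and 33.5 (-0.61, adjusted p = 0.0186, limma). Cox4i2, an isoform of a respiratory subunit, had 6.66 and 7.44 FPKM with CXD101, which was not called against the 5.08 and 3.97 of vehicle, and 39.6 and 42.1 with MS-275 (-2.38, adjusted p = 6.56e-05, limma). Serpinb2 had 6.19 and 4.46 against 16.7 and 25.3.

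In another set of genes CXD101 left the level closer to vehicle, or moved it the other way. Mrc1 had 65.0 and 77.4 FPKM with CXD101 and 16.4 and 13.5 with MS-275, a log2 difference of 2.18 (adjusted p = 6.56e-05, limma), beside 79.9 and 81.3 with vehicle. C1qb had 4.63 and 3.59 against 0.501 and 0.760 (1.65, adjusted p = 4.62e-04, limma), and Ccl17 4.98 and 5.93 against 2.21 and 1.75 (1.12, adjusted p = 0.00597, limma). Marco had 18.04 and 25.04 with CXD101, 8.97 and 11.4 with vehicle and 5.17 and 5.19 with MS-275 (1.85, adjusted p = 4.21e-04, limma). Stfa1 had 19.8 and 12.8 against 2.39 and 2.02, and the related genes 2010005H15Rik and Gm5483 had 32.8 and 21.4 against 5.55 and 5.01 and 292 and 207 against 60.4 and 71.7, all with copies that can share reads. The specific granule gene Ngp had 714 and 795 FPKM with CXD101, 470.1 and 544 with vehicle and 331 and 372 with MS-275 (1.10, adjusted p = 4.09e-04, limma), and Ltf and Camp also were higher with CXD101 than with MS-275, by 1.49 and 1.33.

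For other genes the inhibitors were not called different, and the interval shows how large a difference the data allow. Chd3 had 8.05 and 8.50 FPKM with CXD101 and 8.22 and 8.52 with MS-275, with a 95% interval of the log2 difference from -0.27 to 0.23. For S100a9 the interval was -0.23 to 0.15. Prg2 had 94.0 and 102 against 113 and 133 (-0.33, interval -0.72 to 0.07, adjusted p = 0.248, limma), which leaves room for a fold change above 1.5. Scd1 had 5.24 and 3.17 against 3.20 and 3.08, with an interval from -0.09 to 0.69, and Ccr2 137 and 125 against 125 and 124, with an interval from -0.08 to 0.22. Elane had 1659.9 and 1551 against 2064 and 2244 (-0.42, interval -0.57 to -0.28, adjusted p = 0.00472, limma), lower with CXD101 but within a fold change of 1.5.

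**Figure D4:**
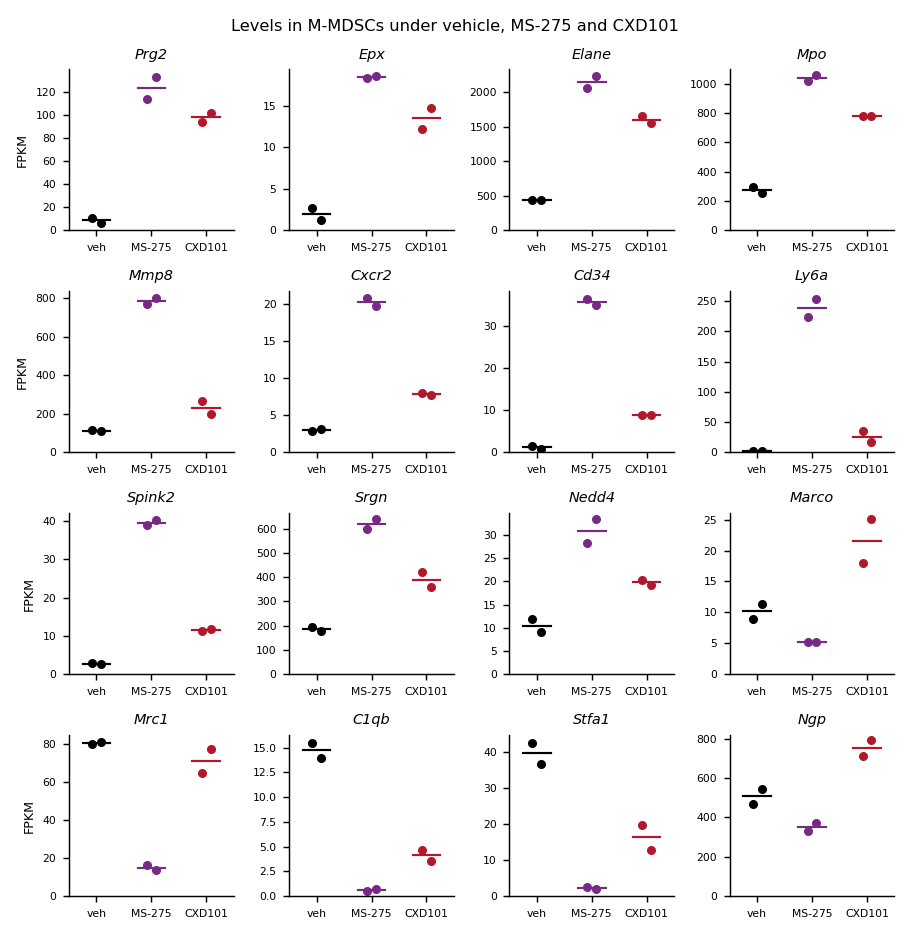
FPKM in each M-MDSC library for 16 genes under vehicle, MS-275 and CXD101 (2 libraries per treatment, horizontal ticks at the mean, separate vertical axes from 0). Cd34, Ly6a, Spink2 and Mmp8 are lower with CXD101 than with MS-275, and Mrc1 and Marco are higher.

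PMN-MDSCs of the same treatments show which of these changes were shared by the other subset. CXD101 against vehicle called 1293 genes higher (11.8%) and 1067 lower (9.74%) of the 10956 genes tested in PMN-MDSCs. The PMN-MDSC libraries are separate from those of M-MDSCs, but whether they come from the same mice is not given in the labels. Their FPKM summed to 656932 and 674361 under vehicle and to 836748 and 860841 under CXD101, a gap not seen in M-MDSCs, and its part in the differences between subsets was not tested. Of the 529 genes that rose in M-MDSCs 466 were tested in PMN-MDSCs, where 303 rose and 3 fell with a median change of 0.95. Of the 329 that fell 314 were tested, and 184 fell and 2 rose with a median of -0.74. Anpep fell in both, with 14.4 and 15.1 FPKM in vehicle PMN-MDSCs and 1.05 and 1.27 after CXD101. Chd3, Gal and Gm1673 rose and Scd1 fell in both subsets, and none of these 5 genes had a response called different. The 95% interval of the difference ran from -0.32 to 0.46 for Chd3 and from -0.04 to 0.51 for Gal, but from -0.94 to 1.04 for Gm1673.

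Whether the response itself differed between the subsets was tested as an interaction, over all 12 libraries and 11351 genes. The response to CXD101 was higher in PMN-MDSCs in 847 genes (7.46%) and lower in 770 (6.78%). The counts were 848 and 771 with median-of-ratios scaling and 876 and 836 with quantile normalization. Of the eosinophil genes called in M-MDSCs, Prg2, Prg3, Epx, Ear1 and Siglecf had a lower response in PMN-MDSCs, while Ear2 and Cebpe rose there too. Prg2 had 34.5 and 34.7 FPKM in vehicle PMN-MDSCs and 27.7 and 19.2 after CXD101, and its response was lower there (log2 difference -3.96 ± 0.314, adjusted p = 3.08e-05, limma). Epx fell in PMN-MDSCs from 7.004 and 4.27 to 2.48 and 2.27 (difference -3.27, adjusted p = 1.01e-04, limma). Cd34, with 2.81 and 2.56 against 4.54 and 3.57, and Id3, with 15.7 and 16.2 against 14.0 and 14.3, had lower responses in PMN-MDSCs too (log2 differences -1.75 and -1.84). In the other direction, Nkg7 rose more in PMN-MDSCs, from 1.10 and 1.70 to 26.5 and 33.6 (difference 1.71, adjusted p = 0.00159, limma), and Nedd4 from 5.50 and 5.53 to 20.8 and 20.7 (difference 0.87, adjusted p = 0.0037, limma).

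The specific granule genes Ngp, Ltf and Camp responded more in PMN-MDSCs. Ngp had 1494 and 1625 FPKM in vehicle PMN-MDSCs and 19038 and 19538 after CXD101, and its response was higher than in M-MDSCs by 3.05 ± 0.121 (adjusted p = 8.77e-07, limma). Ltf and Camp, which overlapped between the groups in M-MDSCs, rose in PMN-MDSCs from 693 and 760.0 to 4945 and 4981 and from 295 and 278 to 2299.9 and 2379.6 (differences 2.76 and 2.67). Gpnmb, a glycoprotein of lipid-laden macrophages, and Gdf15, a stress cytokine, were not called in M-MDSCs, where Gpnmb had 126 and 117 against 137 and 131 and Gdf15 18.3 and 16.9 against 16.9 and 25.2. In PMN-MDSCs they fell from 568 and 452 to 119.9 and 95.6 and from 44.2 and 29.1 to 8.73 and 6.25. Fcgr1 and Cd14, which fell in M-MDSCs, were not called in PMN-MDSCs. Fcgr1 had 24.1 and 23.1 FPKM there against 21.9 and 23.1 (difference 1.13, adjusted p = 6.88e-05, limma), and Cd14 had 122 and 109 against 126 and 128 (difference 1.25, adjusted p = 9.60e-04, limma).

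**Figure D5:**
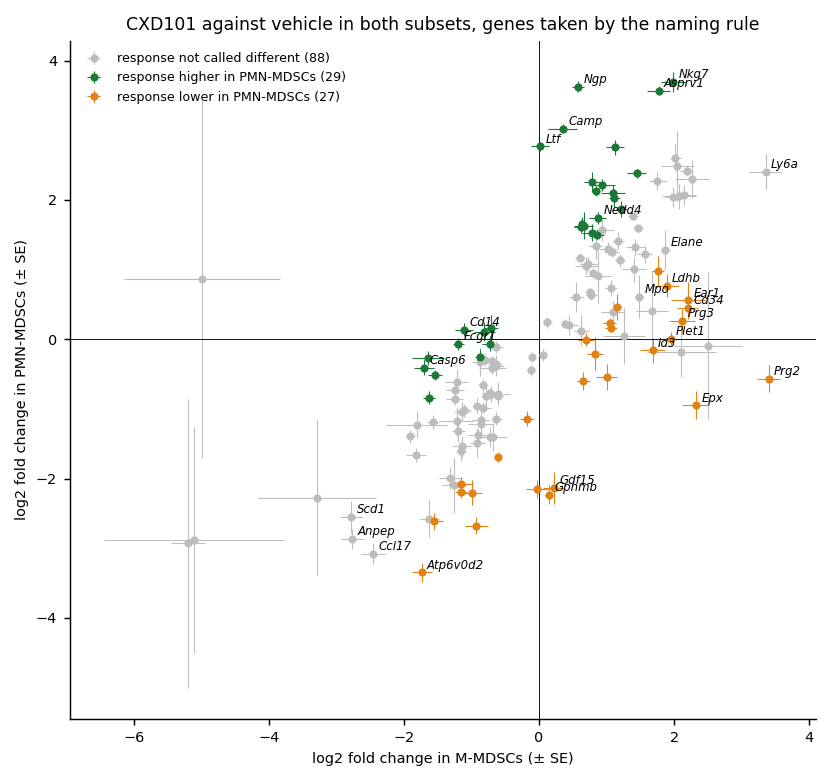
Log2 fold change of CXD101 minus vehicle in PMN-MDSCs (vertical axis) against M-MDSCs (horizontal axis) with standard errors, for 144 of the genes named by a fixed rule. The response was not called different in 88 genes and was higher in PMN-MDSCs in 29 and lower in 27. The rule took some genes for a large change in M-MDSCs or a large difference between subsets, which adds to these counts. Over all genes tested 7.46% were higher and 6.78% lower. Ngp stands high above the diagonal and Prg2 far below it.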

How the data were processed

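RNA-seq was analyzed in sorted tumor MDSCs. For each library the authors deposited a table of gene symbols with their FPKM, which adjusts for transcript length and depth. The submitters' processing notes name TopHat2 2.1.1, Bowtie2 2.2.8, SAMtools 0.1.18, Cuffdiff 2.2.1 and mm10, and the annotation is not given in the sources used here. Counts were not used. Depth was estimated from FPKM steps up to 0.5 in 330 genes with transcripts of at least 1000 bases, assuming similar transcript models. FPKM were compared as log2(FPKM + 1) with limma 3.58.1 (R 4.3.3, intensity trend, Benjamini-Hochberg) over the 6 M-MDSC libraries, or all 12 for the difference between subsets. The procedure was tested on simulated data. Groups came from the labels, which name the miRNeasy Micro kit where the methods name miRNeasy Mini. Same-numbered replicates did not deviate together (r between -0.20 and 0.05).

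Named genes were the 15 largest changes each way (called, at least 5 FPKM in the higher group, groups not overlapping, small RNAs apart), up to 4 called members per list with defining members, genes the study names and up to 5 per further comparison and direction. These members and the 39 lists and 11 marker lists were chosen with earlier results of these data known. Gene positions are from GENCODE M21, which held 23270 of the symbols, and promoters were in the RefSeq table for 8272 tested genes. Alternatives were other pseudocounts, filters, scalings, models, fold change limits, a replicate block and each library left out. Python 3.11.15, numpy 2.4.6, pandas 2.3.3 and matplotlib 3.10.9 were used for the other steps.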

Additional observations from a re-analysis of the deposited data

Results flagged for a closer look

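For 21 genes named above or by the same rule, the response to CXD101 differed between PMN-MDSCs and M-MDSCs in the interaction test over 12 libraries (limma, adjusted p under 0.05 and a fold change above 1.5). The genes looked at were the 15 largest changes each way in M-MDSCs and the 5 largest called differences each way. Those taken for a called difference had to be among the 21, and a choice by large change in M-MDSCs can add to them. The count is therefore a description, and over all 11351 genes 7.46% were higher and 6.78% lower. Values are log2 differences, PMN-MDSCs minus M-MDSCs. The response was lower in PMN-MDSCs for the granule genes Prg2 (-3.96), Epx (-3.27) and Ear1 (-1.65), for the progenitor gene Cd34 (-1.75), and for Plet1 (-1.94), Ldhb (-1.12), Atp6v0d2 (-1.61) and Mmp12 (-1.06). Gpnmb (-2.37), Gdf15 (-2.35) and the stefin gene Gm5483 (-2.12) also had lower responses there, and none of these 3 was called in M-MDSCs. The response was higher in PMN-MDSCs for Nkg7 (1.71), and for Casp6 (1.30), Ankrd37 (1.37), Cdc42ep2 (0.79) and Lpcat2 (1.03), which fell in M-MDSCs. It was also higher for the specific granule genes Ngp (3.05), Ltf (2.76) and Camp (2.67). Sytl3 (3.04), a granule-tethering protein, and Sema4f (2.70), a semaphorin, were too low in M-MDSCs to be tested there. No group had the 4 libraries needed to look for a library apart from its group.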

How the results depend on the processing

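Against vehicle, genes higher numbered 269 at an FPKM of at least 5, 174 at a fold change above 2, 1181 with no fold change limit and 398 to 527 without 1 library. Genes lower numbered 86, 1365 and 282 to 315 under the last 3 settings. Against MS-275, genes higher numbered 37 at a fold change above 2, 850 without the limit and 122 to 138 without 1 library. Genes lower numbered 91 at an FPKM of at least 5, 60 above 2, 551 without the limit and 162 to 185 without 1 library, with 162 without the first CXD101 library. The subset difference was higher in PMN-MDSCs in 311 genes above a fold change of 2, 1425 without the limit and 649 to 897 without 1 library, and lower in 163, 1419 and 633 to 858. The replicate numbers were a label only: a replicate block gave 532 and 330 genes against vehicle, 124 and 245 against MS-275 and 835 and 754 for the subset difference, and changed no call of the 149 named genes with a value. No named gene that was called in either setting reversed direction, and sign changes of genes called in neither were not counted. Of the named genes 135 were called, and 39 changed their call in at least 1 of 13 alternatives. Genes that missed the FPKM minimum in an alternative were not counted there, so that 39 can understate the calls lost. At an FPKM of at least 5, 122 of the 149 were left. The list counts without 1 library also leave out genes that then missed the minimum. With 2 libraries per group, small changes of low genes cannot be resolved, and a library left out leaves its group with 1 library, assumed to vary like the others.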
